A study of Mus musculus with 6 samples.

Results

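Phosphoinositide 3-kinases (PI3-kinases) of class I were examined in cells sorted as mast cells from fetal skin through 9 genes chosen by symbol. They were the 4 catalytic subunit genes Pik3ca, Pik3cb, Pik3cd and Pik3cg, and 4 regulatory subunit genes, Pik3r1, Pik3r2, Pik3r5 and Pik3r6. The last was Inpp5d, which encodes the opposing lipid phosphatase SHIP1. A further regulatory subunit gene, Pik3r3, was not among the 9 and was read with the pathway lists. All 9 were found among the 55809 gene rows of the deposited tables, and all 9 passed the filter on low counts that left 16716 genes for testing. The prenatal stress group was made up of offspring whose C57BL6J dams were restrained in transparent tubes under a bright light, in 3 sessions of 30 minutes a day, from embryonic day 13.5 or 13 (the sources give both) until day 18.5 or 18. The control offspring came from dams of the same strain that were not disturbed. Dams of both groups were 8 to 10 weeks old. In both groups the skin was taken at embryonic day 18.5, digested with enzymes, and sorted for cells that carried CD45, CD117 (KIT) and ST2 and lacked F4/80 and CD64, with male and female mice used. Each group had 3 libraries of polyadenylated RNA, and each library was a pool of 4 mice. The labels do not say how many litters a pool held, so the p-values measure the spread between pools.

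Class I PI3-kinases add a phosphate to a membrane lipid and so make PIP3, which recruits kinases and adaptors to the inner face of the membrane. The class IA catalytic subunits p110 alpha, p110 beta and p110 delta are bound by regulatory subunits of the p85 type, which stabilise them, hold their activity low and bring them to phosphotyrosines of receptors such as KIT. The class IB catalytic subunit p110 gamma works with either p101 or p84 downstream of G protein-coupled receptors. In mouse mast cells p110 delta is known for signalling from KIT and the immunoglobulin E receptor, p110 gamma for amplification through adenosine, and SHIP1, which takes a phosphate off PIP3, as a brake on degranulation.

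The libraries held between 51710555 and 57806119 counts assigned to genes in the prenatal stress group and between 54616570 and 74735139 in the control group. All 11 mast cell markers were tested, among them Kit, and 5 rose while 6 did not pass. Their summed level was 85626 to 103039 CPM (counts scaled to library size with TMM factors) in the stress libraries. In the control libraries it was 59234 to 71498 CPM. Most of this sum came from Cpa3, Cma1, Hdc and Tpsb2. The CPM ranges of both groups overlapped for Kit, Gata2 and Mitf and for no other of the 11. Macrophage transcripts were present in every library. Of 16 macrophage markers 1 rose (Cd68), 1 fell (Cx3cr1) and 14 did not pass, and their summed level was 7230.3, 6619.5 and 10564 CPM in stress replicates 1, 2 and 3 and 9024 to 10330.4 CPM in the controls. Stress replicate 3 thus lay apart from the other stress libraries. Its sum was above the controls, while its mean over the 16 markers, 8.20 on the log2 CPM scale, lay within the 8.05 to 8.23 of the controls, and the other stress libraries were at 7.81 and 7.68. Each result on the 9 genes is therefore also given without it or for it alone. The 6 B cell markers summed to 10.7 to 14.0 CPM after stress and 14.8 to 17.3 CPM in controls, most of it Cd79b. Of the 6 melanocyte markers 5 rose, and their part in the results below was not tested. In pooled cells, fewer cells of a type and less RNA per cell cannot be told apart.

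Prenatal stress went with more transcript of 2 regulatory subunit genes and less of 1 catalytic subunit gene. Pik3r1 rose by 36.8%, Pik3r6 rose by 29.7%, and Pik3cd was at 0.806 of the control level. The other 6 genes did not pass, and Inpp5d was the nearest of them to the threshold. Testing used the quasi-likelihood test of edgeR, and p-values were adjusted over all 16716 genes by the Benjamini-Hochberg method. Among the 9 genes 3 were called at an adjusted p under 0.05, 2 of them higher and 1 lower. Over all genes tested 6.19% were called, of which those that rose made up 4.34% of the genes tested and those that fell 1.85%. With the macrophage markers as a covariate 2 of the 9 and 2.77% of all genes passed, without stress replicate 3 it was 4 of the 9 and 15.4%, and when stress replicate 3 was the one stress library set against the controls, 0 of the 9 and 0.954%. DESeq2 called 4 of the 9 and 11.9% of all genes, and with no filter on low counts 4 of the 9 and 6.6% passed. The CPM ranges of both groups did not overlap for 5 of the 9 genes, against 30.6% of all genes tested. The median log2 fold change of the 9 genes was 0.06, and that of all genes tested was -0.0039.

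**Figure D1:**
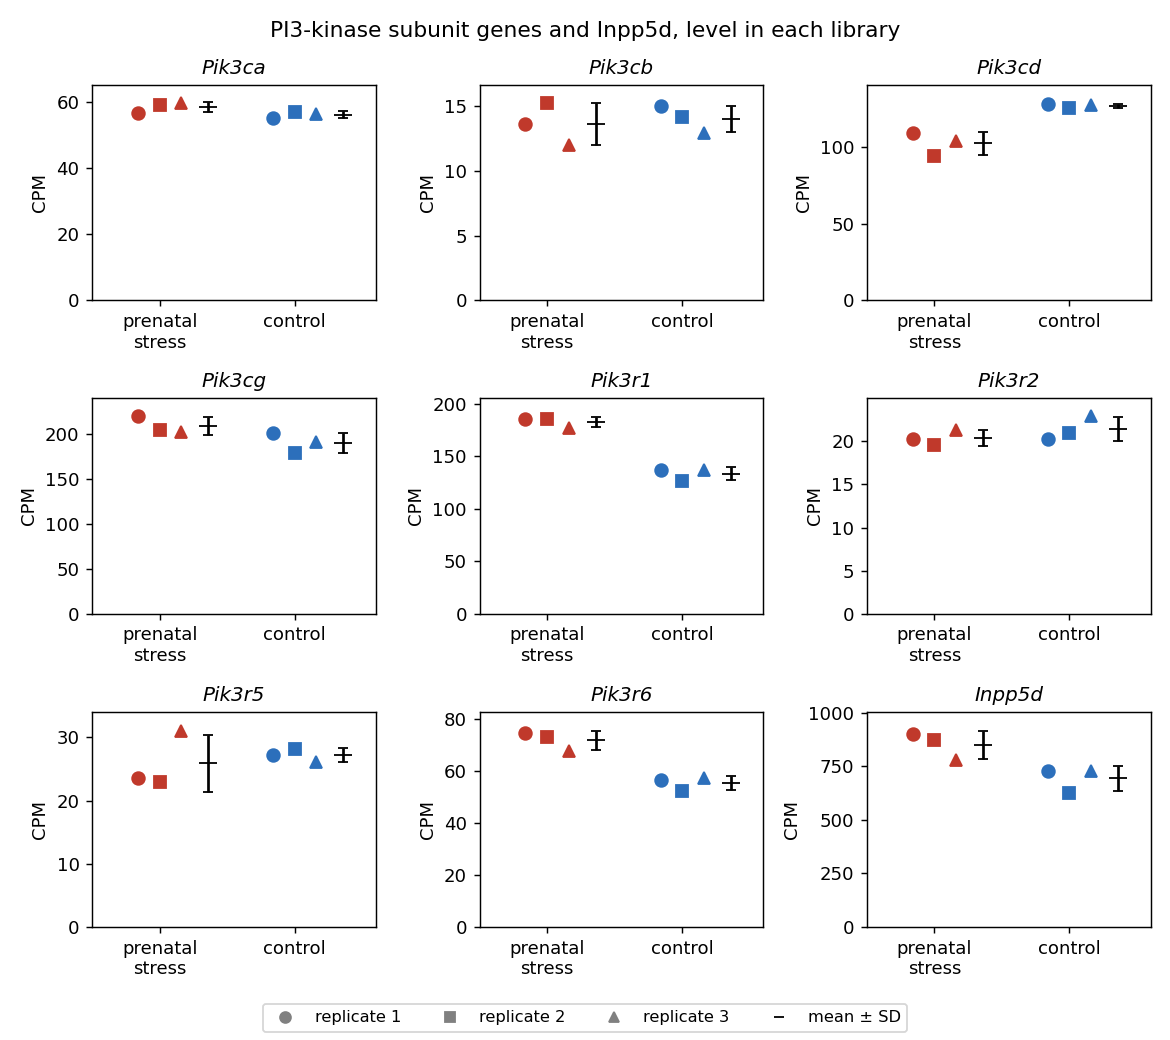
Level of each of the 9 genes in CPM (vertical axes start at 0) in every library, with prenatal stress on the left and control on the right; symbols mark replicates and the black bar is the mean with its SD (n = 3 pools per group). Pik3r1 and Pik3r6 lie higher and Pik3cd lower in all 3 stress libraries than in any control, while Pik3r5 splits the stress libraries, at 23.6 and 23.0 CPM against 31.1 CPM in replicate 3.

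Levels were first ordered between genes per transcript length, as TPM computed from the counts and merged exon lengths. TPM was scaled to the same sum in each library without TMM factors. It serves here to order genes, and changes between groups are read from CPM and the fits. Inpp5d was the most abundant of the 9 by a wide margin, at 346 ± 30.5 TPM in the stress libraries and 313 ± 17.7 TPM in the controls (SD, n = 3 each), above 97.3% of the tested genes over the 6 libraries. Pik3cg came next at 76.8 ± 5.65 TPM after stress and 77.8 ± 3.14 TPM in controls, and it exceeded Pik3cd in 6 of 6 libraries. In CPM the mean of Pik3cg was 209 after stress and 191 in controls. Pik3cd, Pik3r6 and Pik3r1 formed a middle group whose order differed between stress and control libraries and with the length used. Over all 6 libraries they averaged 60.1 ± 11.0, 57.0 ± 5.49 and 50.7 ± 5.94 TPM (SD, n = 6), with overlapping ranges between neighbours. Pik3cd was above Pik3r6 in 3 of 6 libraries, and Pik3r6 was above Pik3r1 in 6 of 6 libraries with merged exon lengths but in 0 of 6 when the longest transcript gave the length. Pik3ca averaged 20.6 ± 1.0 TPM, Pik3r2 16.3 ± 1.6 TPM and Pik3r5 15.6 ± 2.23 TPM. The order of Pik3ca and Pik3r2 turned round with the longest transcript, and the ranges of Pik3r2 and Pik3r5 overlapped. Pik3cb was the least abundant at 6.26 ± 0.716 TPM, below Pik3r5 in 6 of 6 libraries. The sorted pools thus held transcripts of all 8 subunit genes of the set, with p110 gamma and p110 delta, the leukocyte forms, above p110 alpha and p110 beta. As the pools also held macrophage transcripts, these are levels of the pools, and the share that came from mast cells was not tested.

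Among the catalytic subunits Pik3cd, which encodes p110 delta, was the one that changed. It stood at 109, 94.2 and 104 CPM in stress replicates 1, 2 and 3, against 128, 125 and 128 CPM in control replicates 1, 2 and 3. Every stress library was lower than every control, and the controls lay within 3 CPM of each other. The log2 fold change was -0.31 ± 0.06 (SE), a change of -19.4% with a 95% interval from -27% to -11% (adjusted p = 0.028). The call passed in 2 of the 6 fits with 5 libraries. Leaving out any one of the controls gave adjusted p of 0.0893, 0.0954 and 0.0911 for replicates 1, 2 and 3. Leaving out stress replicate 2 gave 0.0906. The log2 fold change was -0.30, -0.32 and -0.31 without control replicates 1, 2 and 3. In these 3 fits 2.69%, 1.33% and 2.27% of all genes tested passed, against 6.19% with all 6 libraries. The log2 fold change lay between -0.36 and -0.26 over the 6 fits with 5 libraries. Stress replicate 3 alone gave -0.30 (adjusted p = 0.0961). With the mean level of the macrophage markers as a covariate it was -0.28 and did not pass (adjusted p = 0.0899). The B cell markers were also lower in every stress library than in any control, and their part in the fall of Pik3cd was not tested.

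RefSeq lists 3 transcription starts for Pik3cd on build GRCm38.p6, and the gene-level count sums over all of them. The first and second in the direction of transcription are shown, and the third is described below them. Each window runs from 250 bases before the start to 50 bases after it, written 5′ to 3′ on the gene's strand. Capitals in this and the later windows mark matches, on either strand, to any of 5 motifs. The core bound by ETS factors was searched as AGGAAGT. The motif of GATA factors was searched as AGATAA. For FOXO factors the letters were TGTTTAC. For an E-box of the MITF kind they were CATGTG. The GC box was searched as GGGCGG. No matches of different motifs overlapped in the windows shown.
Pik3cd start 1, chr4:149698659-149698958, minus strand: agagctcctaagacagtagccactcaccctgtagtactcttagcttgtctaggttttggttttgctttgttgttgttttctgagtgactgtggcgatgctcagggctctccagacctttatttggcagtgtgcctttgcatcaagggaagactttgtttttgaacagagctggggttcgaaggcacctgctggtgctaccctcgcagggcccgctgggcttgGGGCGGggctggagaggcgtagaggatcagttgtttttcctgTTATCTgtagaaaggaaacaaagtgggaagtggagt
Pik3cd start 2, chr4:149676040-149676339, minus strand: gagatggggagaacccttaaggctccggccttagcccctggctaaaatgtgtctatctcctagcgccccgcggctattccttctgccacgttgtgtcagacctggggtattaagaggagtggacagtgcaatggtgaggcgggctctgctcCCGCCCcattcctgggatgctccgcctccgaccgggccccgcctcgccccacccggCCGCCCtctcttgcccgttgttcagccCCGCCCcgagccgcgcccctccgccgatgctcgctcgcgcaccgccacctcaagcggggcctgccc
The upstream window had 51.0% G and C, 6 CG pairs, 1 GATA match and 1 GC box, while the second was a GC-rich window with 68.0% G and C, 26 CG pairs and 3 GC boxes. The third window, not shown, had 54.0% G and C, 4 CG pairs, 1 match to the MITF E-box and 0 GC boxes. Of all 32851 promoter windows of this length 11.2% held the GATA letters, 35.7% a GC box and 14.2% the MITF E-box letters. The counts do not separate the starts, so which of them carried the fall cannot be read from these tables.

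Pik3cg, which encodes p110 gamma, did not pass. It was at 221, 204 and 202 CPM in the stress libraries and at 201, 179 and 192 CPM in the controls. The stress libraries were all above the controls, but the gap between the lowest stress value, 202.3, and the highest control value, 201.2, was small. The log2 fold change was 0.13 ± 0.07 (adjusted p = 0.244), with a 95% interval from -1.04% to 21.4%. Pik3ca, which encodes the ubiquitous p110 alpha, was at 56.6 to 59.6 CPM after stress and 55 to 57 CPM in controls (adjusted p = 0.523; interval from -3.97% to 12.8%). Pik3cb, which encodes p110 beta, was at 12.0 to 15.2 CPM after stress and 12.9 to 14.9 CPM in controls (adjusted p = 0.839; interval from -17.2% to 14%), and 4.69% of its transcript 75-mers also occur in another gene. The groups overlapped for both genes. Without stress replicate 3 the log2 fold change was 0.15 for Pik3cg, 0.04 for Pik3ca and 0.04 for Pik3cb. For stress replicate 3 alone it was 0.08 for Pik3cg, 0.08 for Pik3ca and -0.23 for Pik3cb, so the sign of Pik3cb turned with that library. None of these 6 values passed (adjusted p from 0.176 to 0.83).

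Ratios within a library do not depend on how libraries are scaled, and they describe the make-up of the catalytic transcripts. Pik3cd made up 33.7%, 31.4% and 34.0% of the summed catalytic TPM in stress replicates 1, 2 and 3, against 38.9%, 40.4% and 39.8% in the controls. Pik3cg made up 50.6%, 50.6% and 49.2% after stress, against 45.5%, 42.9% and 44.6% in controls. The shares of Pik3ca, 13.0% ± 0.846 after stress and 12.1% ± 0.572 in controls, and of Pik3cb, 3.83% ± 0.520 and 3.81% ± 0.264 (SD, n = 3 each), overlapped between groups. The ratio of Pik3cg to Pik3cd was 1.5, 1.61 and 1.45 in the stress libraries and 1.17, 1.06 and 1.12 in the controls. For Pik3cd, for Pik3cg and for their ratio the groups did not overlap. These are descriptions with no test, since Pik3cd enters all of them.

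**Figure D2:**
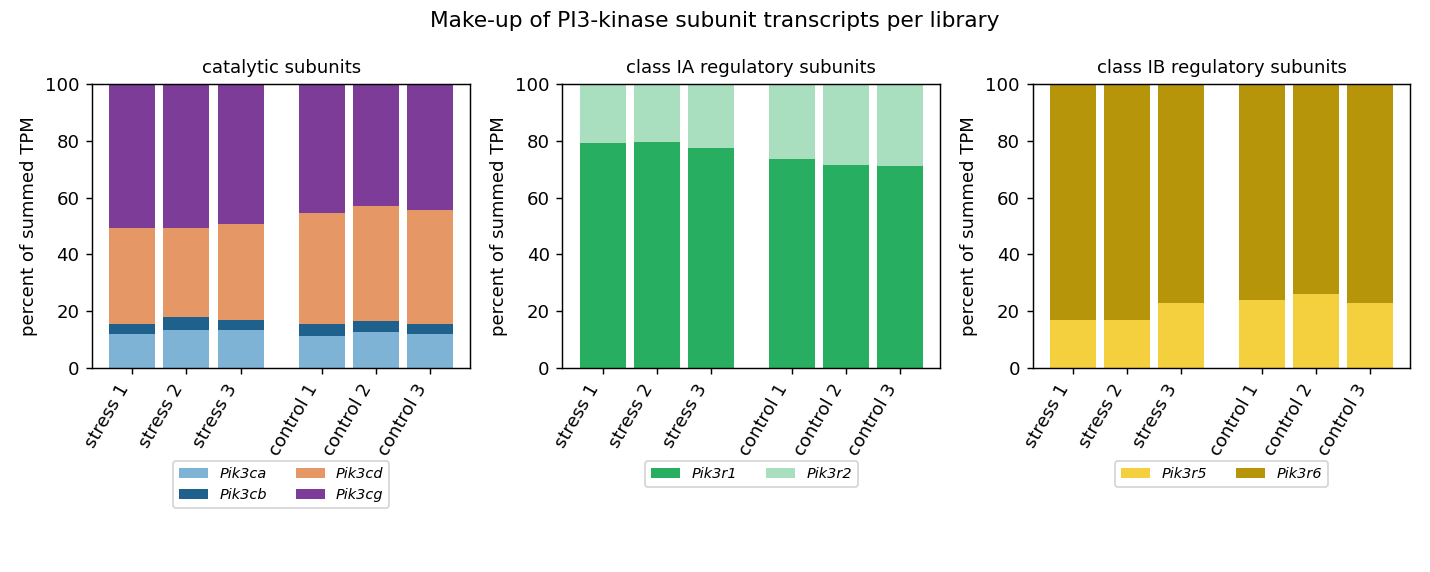
Share of each gene in the summed TPM of the catalytic, class IA regulatory and class IB regulatory subunit genes, in percent, one bar per library with the stress libraries on the left. The Pik3cd share is 31.4% to 34.0% in the stress libraries and 38.9% to 40.4% in the controls, while in the class IB panel stress replicate 3 looks like the controls.

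The clearest change was that of Pik3r1, which encodes p85 alpha and, from inner starts, the shorter p55 alpha and p50 alpha. Pik3r1 was at 185, 185 and 177 CPM in the stress libraries and at 136, 126 and 137 CPM in the controls. No stress library came near a control, and the spread within each group was under 7 CPM (SD 4.61 after stress and 6.28 in controls). The log2 fold change was 0.45 ± 0.06, or 36.8% higher with a 95% interval from 25.1% to 49.7% (adjusted p = 0.00644). It passed in each of the 6 fits with 5 libraries (adjusted p between 0.0016 and 0.0323). Stress replicate 3 alone gave 0.40 (adjusted p = 0.0606), where the spread is taken from the controls only, and the macrophage covariate gave 0.41 (adjusted p = 0.0133).

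RefSeq gives 2 starts for Pik3r1, both shown here because p85 alpha and the shorter proteins are made from different starts of one gene.
Pik3r1 start 1, chr13:101768168-101768467, minus strand: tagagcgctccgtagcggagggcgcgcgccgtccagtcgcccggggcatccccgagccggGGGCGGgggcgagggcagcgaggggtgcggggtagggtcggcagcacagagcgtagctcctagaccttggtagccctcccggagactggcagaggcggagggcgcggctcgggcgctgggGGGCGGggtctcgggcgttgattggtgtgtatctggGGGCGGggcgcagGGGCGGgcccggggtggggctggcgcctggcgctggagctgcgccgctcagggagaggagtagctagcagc
Pik3r1 start 2, chr13:101692581-101692880, minus strand: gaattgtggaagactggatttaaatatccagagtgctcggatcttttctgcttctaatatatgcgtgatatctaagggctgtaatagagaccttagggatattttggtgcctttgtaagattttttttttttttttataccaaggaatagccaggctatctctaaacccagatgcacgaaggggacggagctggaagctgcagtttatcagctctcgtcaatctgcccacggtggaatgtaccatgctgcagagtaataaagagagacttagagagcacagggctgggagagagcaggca
The windows were unlike each other. The upstream one had 75.7% G and C, 34 CG pairs and 4 GC boxes, whereas the inner one had 43.7% G and C, 6 CG pairs and 0 matches to any of the 5 motifs. The median over all windows was 52.7% G and C. The table counts sum over the gene, so the share of p85 alpha in the rise is not given by them.

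Pik3r2, which encodes the related p85 beta, did not follow. It was at 20.3, 19.6 and 21.3 CPM after stress and at 20.3, 20.9 and 23.0 CPM in controls, with overlapping groups (log2 fold change -0.07 ± 0.07, adjusted p = 0.6; interval from -14.9% to 6.86%). Without stress replicate 3 the value was -0.11 (adjusted p = 0.398), and for that library alone it was -0.01 (adjusted p = 0.977). Pik3r1 therefore made up 79.1%, 79.7% and 77.5% of the summed TPM of Pik3r1 and Pik3r2 in the stress libraries, against 73.6%, 71.4% and 71.2% in the controls. The ratio of Pik3r1 to Pik3cd in TPM was 1.05, 1.22 and 1.06 in the stress libraries and 0.663, 0.625 and 0.668 in the controls. Both genes that changed enter that ratio in opposite directions, and the groups did not overlap. Where it lies relative to 1 depends on the length correction, since in CPM Pik3r1 exceeded Pik3cd in the controls too. Pik3r3 did not pass (log2 fold change 0.50 ± 0.25, adjusted p = 0.254) and was left out of the class IA regulatory sum. The summed TPM of Pik3r1 and Pik3r2 over that of the class IA catalytic genes was 0.910, 0.973 and 0.914 in stress libraries. In control libraries it was 0.644, 0.620 and 0.673. These are transcript ratios and say nothing of how many p85 and p110 proteins were made.

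The class IB regulatory genes, which encode the alternative partners of p110 gamma, differed from each other. Pik3r6, encoding p84, was at 74.9, 73.2 and 67.8 CPM in the stress libraries and at 56.6, 52.3 and 57.5 CPM in the controls. All stress libraries lay above all controls, with the lowest stress value in replicate 3. The log2 fold change was 0.37 ± 0.06, or 29.7% higher with a 95% interval from 17.5% to 43.0% (adjusted p = 0.015). It passed in 4 of the 6 fits with 5 libraries, but neither when control replicate 2 was left out (adjusted p = 0.0686) nor when stress replicate 2 was (0.0671). It held with the macrophage covariate (0.31, adjusted p = 0.0456) and not with stress replicate 3 alone (0.28, adjusted p = 0.129). Pik3r6 is thus a less stable call than Pik3r1 of the same direction.

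Pik3r5, encoding p101, measured 23.6, 23.0 and 31.1 CPM in the stress libraries, in replicate order, and 27.2, 28.2 and 26.1 CPM in the controls. The first and second stress libraries were below all controls, and stress replicate 3 was above them. It did not pass (log2 fold change -0.07 ± 0.11, adjusted p = 0.753; interval from -20% to 13.7%). Its value moved with that library. Without stress replicate 3 it was -0.23 (adjusted p = 0.0552) and with stress replicate 3 alone it was 0.19 (adjusted p = 0.29). With the macrophage covariate it was 0.12 (adjusted p = 0.497), so its sign turned there as well. Pik3r6 made up 82.9%, 83.0% and 77.0% of the class IB regulatory TPM in the stress libraries, against 76.1%, 74.0% and 77.2% in the controls. Because of stress replicate 3 the groups overlapped in this share. With merged exon lengths, p84 transcripts were at least 2.84 times those of p101 in every library. The size of this excess depends on the length correction. In control replicate 2 the Pik3r6 share was 71.4% with the longest transcript and 65.0% in counts without length. The ratio of the summed class IB regulatory TPM to Pik3cg was 0.952, 1.0 and 1.01 in the stress libraries and 0.860, 0.920 and 0.902 in the controls.

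**Figure D3:**
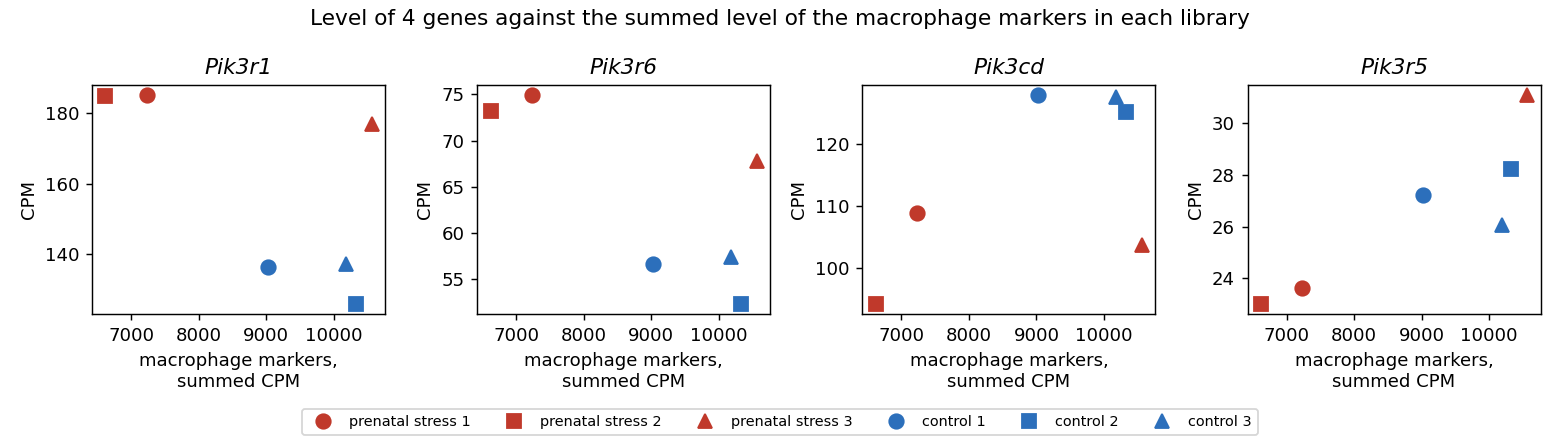
Level in CPM (vertical axes do not start at 0) of Pik3r1, Pik3r6, Pik3cd and Pik3r5 against the summed CPM of the 16 macrophage markers, one symbol per library. Stress replicate 3, at 10564 CPM of macrophage markers, has Pik3r1 and Pik3r6 levels above all controls and the lowest Pik3r6 level of the stress libraries, 67.8 CPM; its Pik3cd level is below all controls and its Pik3r5 level, 31.1 CPM, above them.

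Inpp5d, the gene of SHIP1, was at 902, 875 and 778 CPM in the stress libraries and at 727, 626 and 729.7 CPM in the controls. The groups did not overlap, but stress replicate 3 was close to the controls. The log2 fold change was 0.30 ± 0.08, a level 22.7% higher with a 95% interval from 7.40% to 40.2%, and it did not pass (unadjusted p = 0.00711, adjusted p = 0.0747). It passed without stress replicate 3 (0.35, adjusted p = 0.0176), with DESeq2 (adjusted p = 0.0122) and with no filter on low counts (adjusted p = 0.0251). With the macrophage covariate it was 0.18 (adjusted p = 0.326) and with stress replicate 3 alone 0.16 (adjusted p = 0.461). The ratio of Inpp5d to Pik3cd in TPM was 6.82, 7.65 and 6.18 in the stress libraries and 4.68, 4.12 and 4.71 in the controls.

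The windows at the starts of Inpp5d and Pik3cg are shown because each held 2 matches to the ETS core.
Inpp5d start 1, chr1:87620062-87620361, plus strand: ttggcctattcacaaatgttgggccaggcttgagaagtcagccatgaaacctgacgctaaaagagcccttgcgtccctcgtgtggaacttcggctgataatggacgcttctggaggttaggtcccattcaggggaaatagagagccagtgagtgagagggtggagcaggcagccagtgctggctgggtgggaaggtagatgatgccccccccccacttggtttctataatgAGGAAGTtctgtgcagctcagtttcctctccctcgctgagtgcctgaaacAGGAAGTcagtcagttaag
Pik3cg start 1, chr12:32208610-32208909, minus strand: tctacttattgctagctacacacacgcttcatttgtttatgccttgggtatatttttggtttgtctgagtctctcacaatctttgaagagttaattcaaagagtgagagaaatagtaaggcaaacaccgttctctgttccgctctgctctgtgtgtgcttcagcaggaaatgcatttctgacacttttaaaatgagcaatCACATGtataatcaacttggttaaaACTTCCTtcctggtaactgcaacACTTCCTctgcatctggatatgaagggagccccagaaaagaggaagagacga
The letters AGGAAGT or their reverse complement occurred in 9.35% of all promoter windows. None of the windows of Pik3ca, Pik3cb, Pik3cd, Pik3r1, Pik3r2 or Pik3r5 held them. The second Pik3cg window overlaps the first and shares both matches, and it also held 1 FOXO match, which 3.65% of windows have. RefSeq windows were matched for 8 of the 9 genes, 12 windows in all; Pik3r6 had none in the table. A match is a description of letters and not of binding.

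**Figure D4:**
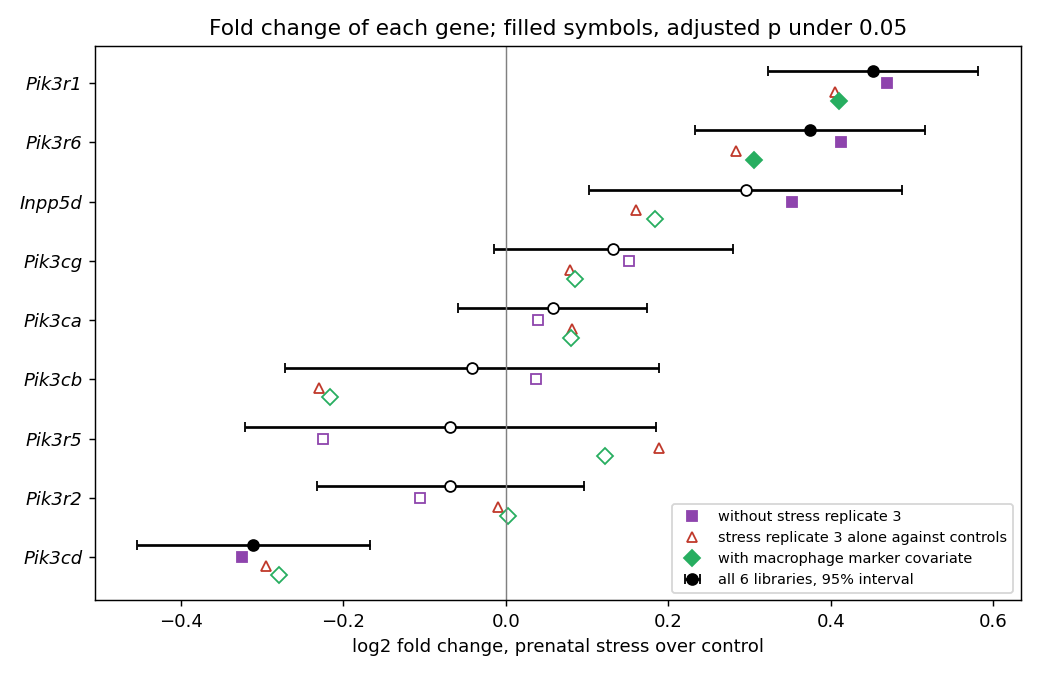
Log2 fold change of prenatal stress over control for each gene, with the 95% interval from all 6 libraries (black), and the values without stress replicate 3, for stress replicate 3 alone, and with the macrophage marker covariate; filled symbols passed an adjusted p of 0.05. Pik3r1, Pik3r6 and Pik3cd keep their side of 0 in all settings shown, while Pik3r5 runs from -0.23 to 0.19.

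By profile over the 6 libraries, the genes most like each called gene were found among 10006 other genes with a mean of at least 5 CPM, as Pearson's r of log2 CPM. Closest to Pik3r1 were Slc6a8, the creatine transporter gene (r = 0.999, log2 fold change 1.10 ± 0.10), Mst1r, which encodes the receptor tyrosine kinase RON (0.999, 0.57 ± 0.07), and the Mas-related receptor gene Mrgprb1 (0.997, 2.51 ± 0.22), and all 3 rose. Closest to Pik3r6 were Btk, a kinase recruited by PIP3 (0.997, log2 fold change 0.20 ± 0.05, adjusted p = 0.0627), Dusp4, a phosphatase of MAP kinases (0.997, 1.19 ± 0.14, adjusted p = 0.0053), and Gpr183, an oxysterol receptor gene (0.997, 0.57 ± 0.09, adjusted p = 0.0118). Closest to Pik3cd were Mfng, a glycosyltransferase that acts on Notch (0.996), Helb, a DNA helicase (0.996), and Rab40c, a small GTPase (0.995), with log2 fold changes from -0.31 to -0.21 and adjusted p from 0.0536 to 0.1. With 6 libraries and so many candidates, high values of r are common, and they are given as a description. Genes picked for likeness to a called gene tend to change in its direction. Their fold changes are thus no further support for the calls.

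Around the 9 genes, 69 other genes of the pathway were read from 6 lists. Of 68 tested, 8 rose, 0 fell and 60 did not pass, with a median log2 fold change of 0.03; 4.34% of all genes tested rose. With an unadjusted threshold many more genes move, since 24.8% of all genes tested had an unadjusted p under 0.05.

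Upstream, 6 of 21 receptor and adaptor genes rose, 0 fell and 15 did not pass (median 0.21). Gab2, an adaptor whose phosphotyrosines bind p85, was at 199, 208 and 187 CPM in the stress libraries and at 146, 101 and 128 CPM in the controls (adjusted p = 0.0187). Lat2, an adaptor of the immunoglobulin E receptor, was at 498, 512 and 455 CPM after stress and at 393, 324 and 395 CPM in controls (adjusted p = 0.0367), and 36.3% of its exon bases lie opposite exons of another gene. Its relative Lat was at 56.8, 61.5 and 52.1 CPM after stress and 44.7, 36.8 and 45.0 CPM in controls (adjusted p = 0.0335). Lat and Lat2 each passed in 1 of the 6 fits with 5 libraries, and Gab2 in 3 of them. Adora3, the adenosine receptor gene known for p110 gamma signalling in mouse mast cells, was at 0.42 ± 0.08 on the log2 fold scale (adjusted p = 0.024) and passed in 3 of 6 such fits; its value is uncertain, because another gene shares 17.5% of its 75-mers. The receptor chain genes Fcer1a (2.26 ± 0.29, adjusted p = 0.00666) and Ms4a2 (0.58 ± 0.10, adjusted p = 0.0152) also rose. With the macrophage covariate Lat, Lat2 and Adora3 did not pass (adjusted p from 0.0751 to 0.14), whereas Fcer1a, Ms4a2 and Gab2 did. Kit, the receptor that class IA PI3-kinase binds, had 0.23 ± 0.10 (adjusted p = 0.187).

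Downstream, 2 of 16 PIP3 effector genes rose, 0 fell and 14 did not pass (median -0.02). Dapp1, an adaptor that binds PI3-kinase lipids, was at 370, 383 and 347 CPM after stress and at 299.97, 270.0 and 291 CPM in controls (log2 fold change 0.35 ± 0.07, adjusted p = 0.0216). Dapp1 passed in 1 of the 6 fits with 5 libraries, and it did not pass with the macrophage covariate (adjusted p = 0.0842). The kinase genes Akt1 (-0.09 ± 0.06, adjusted p = 0.389), Akt2 (-0.01 ± 0.05, 0.89) and Pdpk1 (0.10 ± 0.05, 0.251) did not pass. In the mTOR and FOXO branch 0 of 17 genes passed (median -0.01), and its members with the highest CPM, which is not corrected for length, were Tsc2 (0.11 ± 0.07, adjusted p = 0.366) and Gsk3b (0.07 ± 0.05, adjusted p = 0.418).

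Of the other phosphatases that act on PI3-kinase lipids, 0 of 7 passed (median 0.06). Inpp4b, which acts on the lipid that SHIP1 makes, was at 331, 329.6 and 245 CPM after stress and at 231, 219.8 and 237 CPM in controls (log2 fold change 0.39 ± 0.11, adjusted p = 0.0685). As with Inpp5d, stress replicate 3 was the stress library closest to the controls.

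Among other class I genes 0 of 3 passed (median 0.44). Pik3ap1, an adaptor gene that recruits PI3-kinase in B cells and macrophages, measured 96.8, 95.02 and 121 CPM in the stress libraries, in replicate order, and 109, 119.9 and 119 CPM in the controls (adjusted p = 0.34). The highest stress value was that of replicate 3, whose macrophage marker sum was also the highest; the part of macrophage transcripts in Pik3ap1 was not tested. Pik3ip1, an inhibitor of p110, was at 15.3, 13.7 and 9.75 CPM after stress and at 9.91, 8.26 and 10.3 CPM in controls (adjusted p = 0.131). Of 5 class II and III genes 4 were tested and 0 passed (median -0.10). Pik3c2a, a class II kinase gene, had -0.21 ± 0.05 (adjusted p = 0.0546) and Pik3c3, the class III kinase gene of endosomes and autophagy, had 0.20 ± 0.06 (adjusted p = 0.0813).

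**Figure D5:**
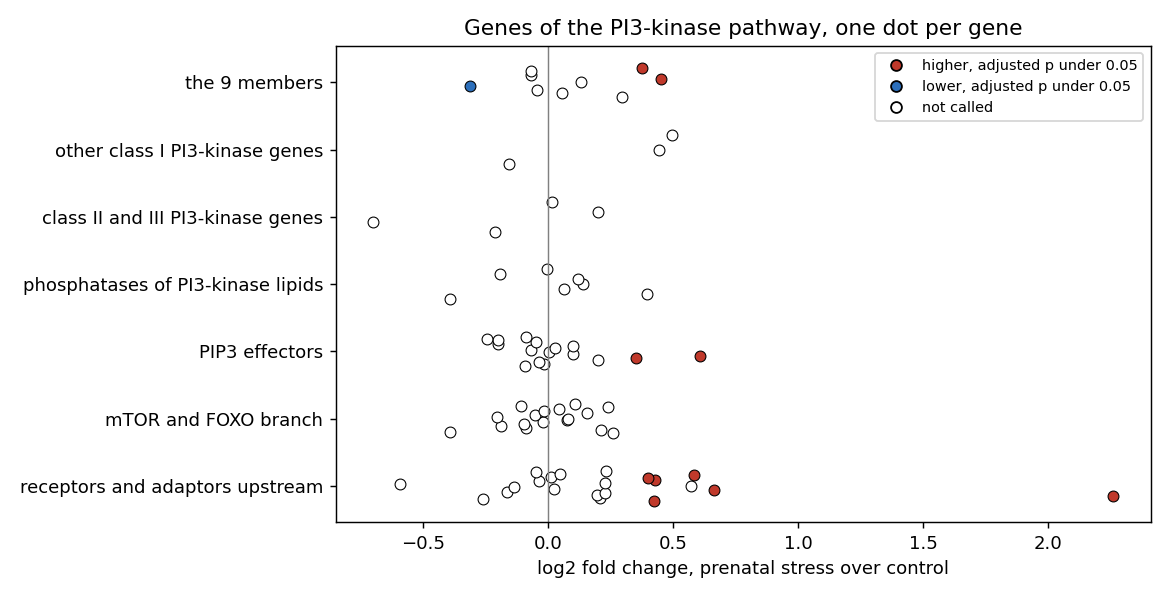
Log2 fold change of prenatal stress over control for the 9 genes and for each tested gene of the 6 pathway lists, one dot per gene; red dots passed as higher and the blue dot as lower. The called genes outside the 9 lie in the receptor and adaptor list, 6 of 21, and the PIP3 effector list, 2 of 16.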

How the data were processed

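The authors deposited, for each of the 6 libraries, a table of raw, unscaled counts by gene symbol. Per the submitters' processing notes the tools were FastQC, STAR 2.4 and HTSeq 0.9.1, with builds GRCm39 and mm10 and no role for either; of the strand setting and annotation nothing is stated. The 5 rows that name no gene were left out; genes took 79.7% to 81.4% of reads tallied. Genes were filtered with filterByExpr (minimum count 10), scaled with TMM and tested with edgeR 4.0.16 (R 4.3.3) quasi-likelihood without covariates; alternatives used DESeq2 1.42.0 and limma 3.58.1. TPM was computed from merged exon lengths of GENCODE M21, matched by symbol for 90.8% of rows. Antisense reads may count where genes overlap, and reads with several alignments were not counted. The test was also run on simulated counts, and the outcome is not reported here. Those counts took their spread from these data and held no library set apart like stress replicate 3. No 2 libraries agreed within sampling noise. The named genes were the 9 members, the pathway genes that passed (or the 2 of highest CPM in a list where none did), and for each called member the 3 genes of most similar profile; some genes of this rule are not reported here; further genes were named after their values were seen, Akt1, Akt2, Pdpk1 and the marker Cd79b among them. The members and lists were chosen with earlier results of these data known. Promoter sequences are RefSeq's, build GRCm38.p6.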

Additional observations from a re-analysis of the deposited data

How the results depend on the processing

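Pik3r1 passed in all 16 alternatives but stress replicate 3 alone, and Pik3r1, Pik3r6 and Pik3cd had the same sign in all of them. All 3 passed with RLE or upper-quartile factors, library totals, no filter, the stricter filter, DESeq2 and limma-voom. Of the 9 genes, 0 passed with stress replicate 3 alone, and between 1 and 4 passed when 1 library was left out. Over all genes, 1035 were called, 725 higher and 310 lower. The count was 2085 with library totals (553 higher and 1532 lower, where the median of all genes is at -0.12 and Pik3ca turns to -0.06), 1933 with no filter, 1989 with DESeq2, 463 with the macrophage covariate and 171 with stress replicate 3 alone. Leaving out 1 library gave 196 (without stress replicate 2) to 2647 (without stress replicate 3); the other 4 gave 226 to 460. With the replicate number as a block 622 genes passed, and Pik3r1 (adjusted p = 0.0218), Pik3r6 (0.0356) and Pik3cd (0.0474) kept their calls. Same-numbered libraries had correlations of deviations of 0.0954, -0.0188 and 0.0684. Those of differently numbered libraries ran from -0.209 to 0.136. With 3 libraries per group these values cannot settle whether the numbers pair the libraries. Without lengths the Pik3cd share of catalytic counts was 26.7% after stress and 32.7% in controls. Depth does not limit the 9 genes, whose lowest count was 666. Counts of single genes cannot separate transcript starts.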
